A study of Rattus norvegicus with 49 samples.

Results

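The proteasome genes of rat liver and kidney were followed over 6 doses of an oral compound. They were taken as all genes whose symbol starts with Psma, Psmb, Psmc, Psmd, Psme or Psmg, which gave 45 of the 14217 genes analysed. Where a gene had more than 1 probe set annotated to exactly 1 symbol, the brightest on average over all arrays was read. The 45 genes have 59 such probe sets, and 9 genes have several. The immunoproteasome subunits Psmb8, Psmb9 and Psmb10 are described apart, and 2 genes match the prefix without coding for a proteasome subunit (Psmc3ip and Psme3ip1), which leaves 40 others. Counts and medians over the 45 genes include all of these. Psmb6 and Psme3 have only probe sets with several symbols and are not analysed here.

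Male Harlan Sprague Dawley rats, an outbred stock 6 to 8 weeks old at assignment and housed 5 to a cage on NTP-2000 diet, were given propylene glycol phenyl ether (PPH), a glycol ether solvent, by gavage in corn oil at 5 mL/kg on 5 consecutive days. They were killed the day after the last dose, and RNA from both organs was measured on Affymetrix arrays, 1 array per sample. Liver has 5 arrays at 0 mg/kg, which received corn oil as all groups did, and 4 at each of 1, 10, 100, 500 and 1000 mg/kg per day, and kidney has the same numbers except 3 at 500 mg/kg. No tissue was collected at 2000 mg/kg, and the treatment text of the labels names another compound (MCHM), so the series title and sample labels were followed. The samples are labelled biological replicates, p-values measure only the spread between them, and the number of arrays limits the precision. Array medians were 6.47 to 6.62 in the 25 liver arrays and 6.62 to 6.77 in the 24 kidney arrays, and the lowest correlation between any pair of arrays of an organ was 0.987. Hepatocyte markers had a median log2 level of 13.63 in liver and 3.97 in kidney, and proximal tubule markers 12.15 in kidney and 5.28 in liver.

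The proteasome degrades proteins tagged with ubiquitin. Its barrel-shaped core particle is built of alpha rings, which gate the entry, and beta rings, which hold the peptidase sites. The regulatory particle binds and unfolds substrates with its ATPase ring (Psmc genes) and carries ubiquitin receptors and a deubiquitinase among its non-ATPase subunits (Psmd genes). Interferon replaces the catalytic subunits with Psmb8, Psmb9 and Psmb10 and raises the PA28 activator (Psme1 and Psme2), which favours peptides for MHC class I. In liver the genes of the constitutive subunits are known targets of the transcription factor NRF1 (Nfe2l1), and in part of NRF2 (Nfe2l2).

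In liver, Psmc3 and Psmd8 rose at 1000 mg/kg, 2 of the 45 genes, and none fell (limma adjusted p under 0.05, Benjamini-Hochberg over all genes). Of all genes tested 0.739% were called higher and 0.309% lower. The log2 difference from controls was above 0 in 42 of the 45 genes, against 54.3% of all genes and 65.3% of the brighter genes defined next, and its median was 0.17, against 0.02 over all genes and 0.05 over the brighter genes, those whose mean level was not below the median gene. Of the 45, 44 are among these brighter genes. Among the 40 genes without the immunoproteasome subunits and the 2 non-subunits, 39 were above 0, with a median of 0.17. Of these 40, 27 had an unadjusted p under 0.05 with a higher level. An unadjusted p under 0.05 with a higher level was reached by 28 of the 45, against 7.88% of all genes, and with a lower level by 0, against 4.54%. Of the 7109 brighter genes, 881 reached it with a higher level and 249 with a lower one. By the adjusted p, 96 of the brighter genes were called higher and 31 lower. Every 1000 mg/kg array lay above every control array in 15 of the 45 genes, against 3.45% of all genes, and below every control in 0, against 1.73%. In whole tissue, fewer cells of a type and less RNA per cell cannot be told apart.

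Psmc3 encodes Rpt5, an ATPase of the base of the regulatory particle. The 5 liver controls read 10.06, 10.21, 10.04, 10.14 and 10.04 on the log2 scale, and the 4 livers at 1000 mg/kg read 10.44, 10.29, 10.42 and 10.41. All 4 dosed arrays lie above the highest control. Psmc3 averaged 10.39 ± 0.07 (SD, n = 4) at 1000 mg/kg and 10.10 ± 0.08 (SD, n = 5) in controls, a 1.22-fold rise or a log2 change of 0.29 with SE 0.061 and a 95% interval of 0.16 to 0.42 (limma adjusted p = 0.0194). The call was lost without replicate 1, 3 or 4 of the 1000 mg/kg group (limma adjusted p 0.0617, 0.0784 and 0.0579) and when only these 2 groups were fitted (0.140). At the lower doses the group means were 10.25 ± 0.08, 10.22 ± 0.06, 10.31 ± 0.09 and 10.30 ± 0.07 (SD, n = 4 each) at 1, 10, 100 and 500 mg/kg, and none passed the test.

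Psmd8 encodes Rpn12, a subunit of the lid of the regulatory particle. The liver controls read 9.53, 9.48, 9.58, 9.46 and 9.47, and the arrays at 1000 mg/kg 9.76, 9.70, 9.94 and 9.86. Again every dosed array is above every control. Psmd8 averaged 9.81 ± 0.11 (SD, n = 4) at 1000 mg/kg and 9.50 ± 0.05 (SD, n = 5) in controls, a 1.24-fold rise or a log2 change of 0.31 with SE 0.071 and a 95% interval of 0.16 to 0.46 (limma adjusted p = 0.0307). The call was lost without any 1 of controls 1, 2, 4 and 5 or of replicates 1, 3 and 4 at 1000 mg/kg (limma adjusted p 0.0522 to 0.152), with arrays centred on their median (0.0501) and when only these 2 groups were fitted (0.123). At 1, 10, 100 and 500 mg/kg the means were 9.65 ± 0.07, 9.72 ± 0.05, 9.64 ± 0.12 and 9.74 ± 0.14 (SD, n = 4 each), with no call. The groups at 100 and 500 mg/kg are uneven, with replicate 4 at 100 mg/kg at 9.82 and the others of that group between 9.57 and 9.59.

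**Figure D1:**
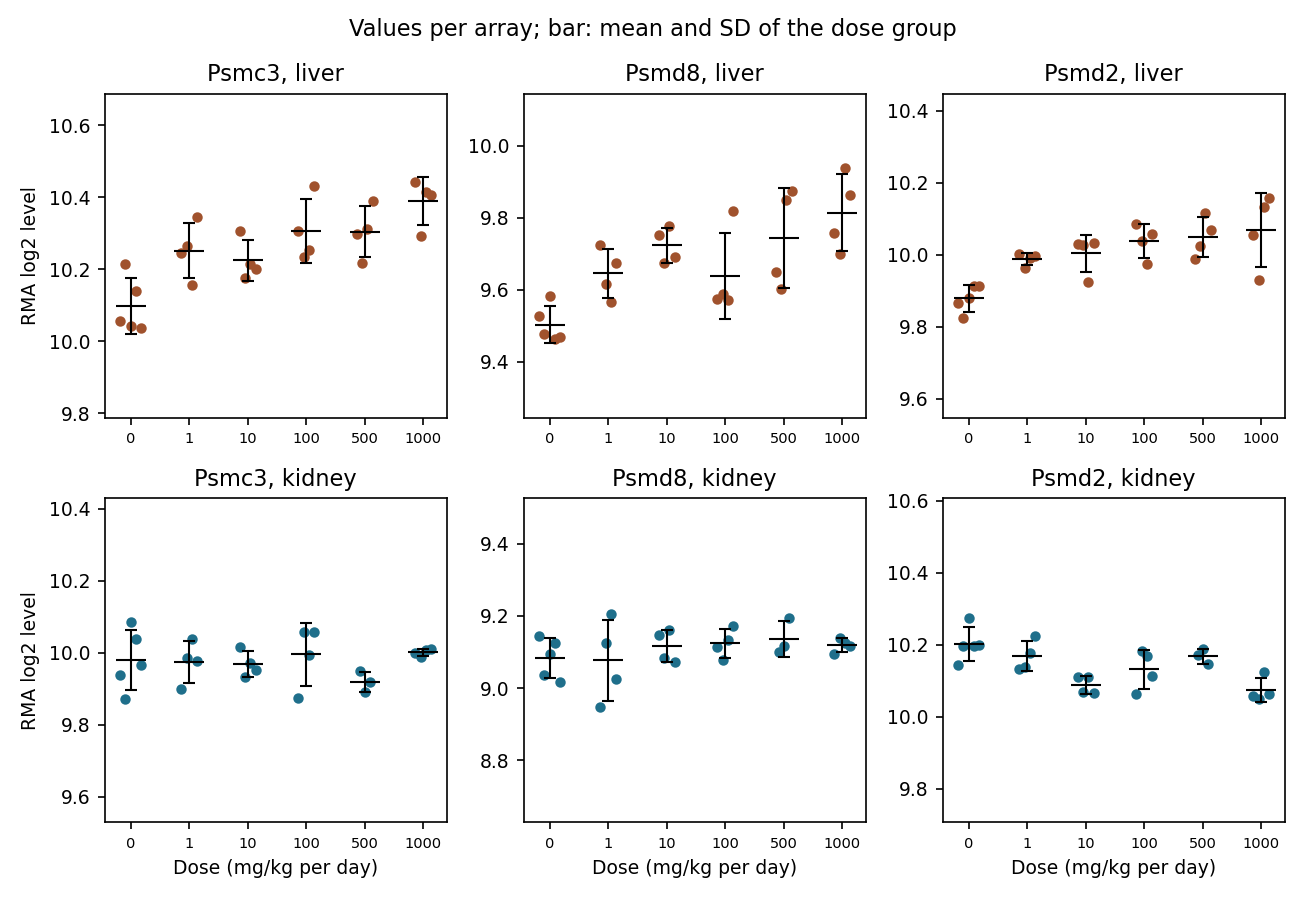
RMA log2 level (vertical axes) of Psmc3, Psmd8 and Psmd2 in each liver array (top) and kidney array (bottom) by dose in mg/kg per day. Points are arrays and bars are the group mean and SD. In liver the 4 arrays at 1000 mg/kg lie above every control for all 3 genes, and in kidney the 4 Psmd2 arrays at 1000 mg/kg lie below every control.

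The plot of Psmc3, Psmd8 and Psmd2 by dose shows that the liver levels at 1 mg/kg already lay mostly above the controls. Of the 4 arrays at 1 mg/kg, 3 exceeded the highest Psmc3 control (10.21), and 3 the highest Psmd8 control (9.58). For Psmd2, a scaffold subunit of the regulatory particle, the liver controls spanned 9.82 to 9.91, and each of the 20 dosed arrays lay higher, between 9.92 and 10.16. The share of all genes with every dosed liver above every control is not given here. The median of the brighter genes exceeded every control in 14 of the 20. The Psmd2 log2 difference at 1000 mg/kg was 0.19 with SE 0.054 and did not pass (limma adjusted p = 0.0986).

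The bases upstream of 4 of these genes are shown because the genes stand for different results: Psmc3 and Psmd8 were called in liver, Psmb5 carries the match of the NRF1 and NRF2 motif among the catalytic subunits, and Psmb10 has interferon-type matches. Each line gives the 250 bases before the gene start, 5′ to 3′ on the gene's strand, from RefSeq on build GRCr8. Capitals mark matches of TGACNNNGC (core of the antioxidant response element), CCAAT (the box bound by NF-Y) or GAAA, any 2 bases and GAAA again (core of the interferon-stimulated response element) on either strand. The positions are chr3:97487393-97487642 on the plus strand for Psmc3, chr1:93608690-93608939 on the minus strand for Psmd8, chr15:32047380-32047629 on the minus strand for Psmb5 and chr19:50743293-50743542 on the minus strand for Psmb10.
Psmc3: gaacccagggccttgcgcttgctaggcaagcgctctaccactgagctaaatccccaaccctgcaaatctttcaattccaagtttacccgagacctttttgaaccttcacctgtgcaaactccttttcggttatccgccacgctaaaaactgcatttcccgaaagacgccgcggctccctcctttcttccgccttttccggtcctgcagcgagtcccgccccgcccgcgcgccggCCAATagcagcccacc
Psmd8: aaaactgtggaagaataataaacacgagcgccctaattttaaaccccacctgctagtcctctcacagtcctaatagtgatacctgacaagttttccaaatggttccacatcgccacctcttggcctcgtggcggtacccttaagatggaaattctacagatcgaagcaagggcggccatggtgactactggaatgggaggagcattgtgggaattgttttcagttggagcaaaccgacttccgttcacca
Psmb5: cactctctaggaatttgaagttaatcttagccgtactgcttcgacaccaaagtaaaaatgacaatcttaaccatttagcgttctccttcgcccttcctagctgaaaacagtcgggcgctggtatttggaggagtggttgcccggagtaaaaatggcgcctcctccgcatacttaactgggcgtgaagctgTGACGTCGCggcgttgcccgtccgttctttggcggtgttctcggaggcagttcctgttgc
Psmb10: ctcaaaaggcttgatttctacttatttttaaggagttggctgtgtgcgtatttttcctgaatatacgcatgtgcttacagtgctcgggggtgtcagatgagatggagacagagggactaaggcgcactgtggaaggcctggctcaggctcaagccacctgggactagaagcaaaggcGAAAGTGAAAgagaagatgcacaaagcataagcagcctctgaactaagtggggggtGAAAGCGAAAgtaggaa

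Psmc3 has 1 CCAAT match, which starts 16 bases before the gene start, and Psmd8 has no match of the 3 motifs in this window. The Psmb5 match of TGACNNNGC starts 60 bases before the start, and the Psmb10 matches of the interferon-type motif start 73 and 17 bases before it. The table of promoters held 41 of the 45 genes, all but Psma7, Psmd6, Psmd12 and Psmd14. TGACNNNGC was found in 6 of the 41 (Psma3, Psmb2, Psmb5, Psmd1, Psmd9 and Psme4), and in 12.3% of all 11734 promoters of that length. CCAAT was found in 20 of the 41 and in 35.1% of all promoters. The interferon-type motif was found in 5 of the 41 (Psma4, Psmb3, Psmb10, Psmd7 and Psme2) and in 2.65% of all. In Psmb2 a CCAAT and a TGACNNNGC match share a base. A match is a stretch of letters and shows no binding.

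Among the alpha ring subunits, all 7 genes had a log2 difference above 0 in liver at 1000 mg/kg, between 0.09 (Psma7) and 0.23 (Psma6), with a median of 0.17. None was called. Psma6 read 11.26, 11.31, 11.21, 11.40 and 11.31 in controls and 11.52, 11.46, 11.64 and 11.48 at 1000 mg/kg, with no overlap (difference 0.23, SE 0.058, limma adjusted p = 0.0574). Psma1 and Psma2 also had all 4 dosed arrays above every control, with differences of 0.19 and 0.14. Psma3, Psma4, Psma5 and Psma7 had 3 of 4 above.

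The structural beta subunits Psmb1, Psmb2, Psmb3 and Psmb4 had differences of 0.18, 0.10, 0.17 and 0.15, none of them called. Psmb5 bears the chymotrypsin-like site. Its liver controls read 10.87, 10.95, 11.01, 11.06 and 11.05 and its 1000 mg/kg arrays 11.16, 11.11, 11.25 and 11.21, a difference of 0.19 with SE 0.059 (limma adjusted p = 0.129). Psmb5 did not overlap its controls at 1, 10 or 500 mg/kg either, with differences of 0.17, 0.18 and 0.23. Psmb7 bears the trypsin-like site. It read 8.89, 8.82, 8.91, 8.78 and 8.96 in controls and 8.97, 9.18, 9.13 and 9.04 at 1000 mg/kg, a difference of 0.21 with SE 0.073 (limma adjusted p = 0.202). The lowest dosed Psmb7 array lies just above the highest control.

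The ATPase ring had a median difference of 0.19 over its 6 genes. After Psmc3 came Psmc5 (0.28, limma adjusted p = 0.101), Psmc1 (0.20), Psmc2 (0.18), Psmc4 (0.12) and Psmc6 (0.10). The Psmc5 arrays at 1000 mg/kg read 9.73, 9.48, 9.86 and 9.87, and replicate 2 lies among the controls at 9.33 to 9.52. Replicate 2 was the lowest of the 4 livers at 1000 mg/kg in Psmc3, Psmd8, Psmd2 and Psmb5 as well.

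The non-ATPase subunits had the highest median of the groups with several genes, 0.23 over 11 genes, from 0.14 (Psmd7) to 0.31 (Psmd8). Psmd3, a lid scaffold subunit, read 7.92, 8.08, 7.97, 8.14 and 7.83 in controls and 8.34, 8.20, 8.28 and 8.30 at 1000 mg/kg, without overlap. Its difference of 0.30 with SE 0.078 was about that of Psmc3, and it did not pass (limma adjusted p = 0.0672). Psmd4, a ubiquitin receptor, differed by 0.25 and did not overlap its controls (limma adjusted p = 0.118). Psmd14, the lid deubiquitinase, differed by 0.23 (limma adjusted p = 0.276), with 3 of 4 arrays above every control.

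Of the 7 chaperones that assemble the complex, 6 had a liver difference above 0 at 1000 mg/kg, and none was called. Psmg2 differed by 0.22, Psmg1 by 0.12 and Psmg3 by 0.10. Psmg4 was on the other side, with controls at 9.67, 9.83, 9.62, 9.77 and 9.73 and 1000 mg/kg arrays at 9.45, 9.59, 9.52 and 9.76, a difference of -0.14 (limma adjusted p = 0.437). Its replicate 4 lies within the controls and the other 3 lie below them. For the regulatory particle chaperones the differences were 0.24 (Psmd5), 0.10 (Psmd9) and 0.08 (Psmd10). Psmd9 was low in 1 liver at 500 mg/kg, replicate 2, at 7.41 beside 8.40 to 8.43 in the others of that group, and its difference at that dose was -0.04. The activator Psme4, known for its role in sperm histone removal, differed by 0.17. Psmc3ip, a meiotic recombination factor, and Psme3ip1 differed by 0.08 and 0.12.

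**Figure D2:**
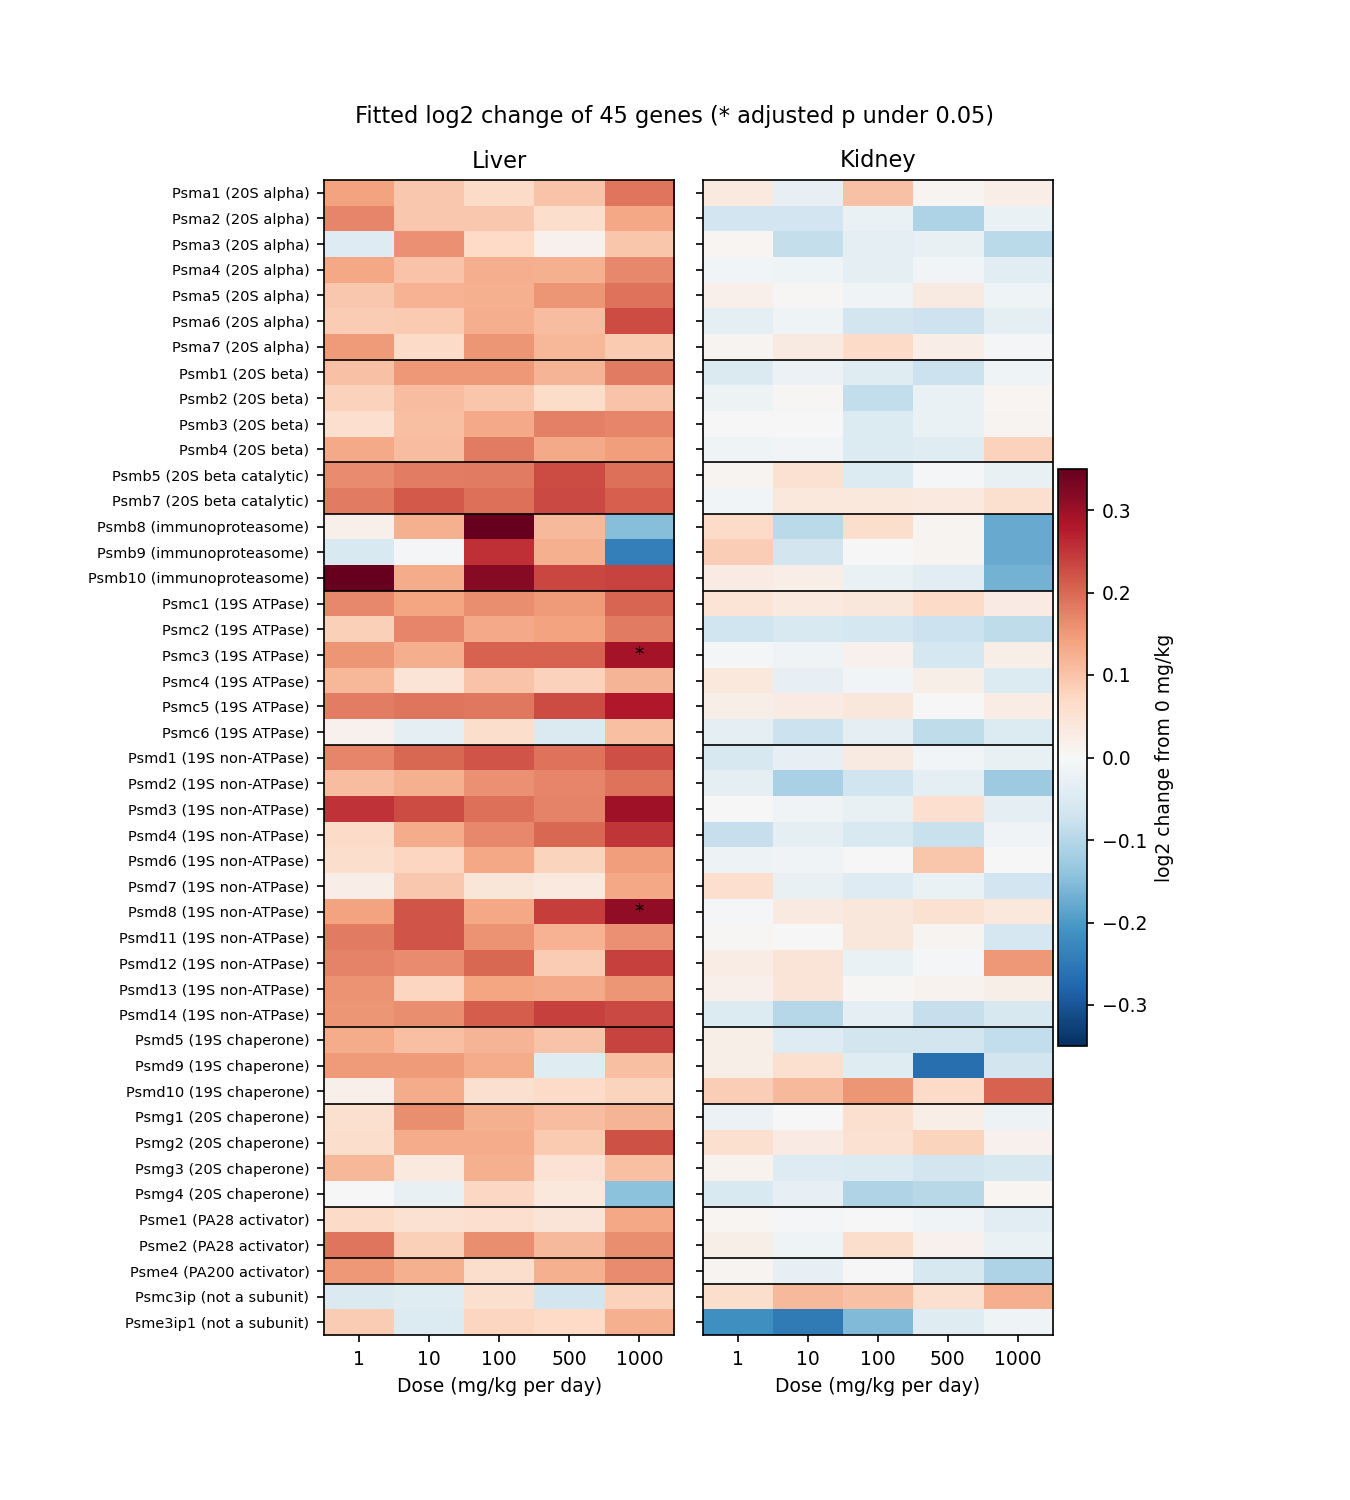
Log2 change from 0 mg/kg (colour scale) of the 45 genes in rows, grouped by role, at 1, 10, 100, 500 and 1000 mg/kg in liver (left) and kidney (right). 20S and 19S name the core and the regulatory particle, asterisks mark a limma adjusted p under 0.05, and Psmb8 at 100 mg/kg and Psmb10 at 1 mg/kg in liver, at 0.35 and 0.37, are beyond the end of the scale. Liver changes at 1000 mg/kg run from -0.24 (Psmb9) to 0.31 (Psmd8), and kidney changes from -0.18 to 0.21.

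At the lower doses no proteasome gene was called in liver. The share of all genes called higher was 0% in the lowest group, 0.00703% in the 10 mg/kg group, 0% in the 100 mg/kg group and 0.0492% in the 500 mg/kg group, so few genes of any kind passed. The log2 difference was above 0 in 41, 40, 45 and 42 of the 45 genes in order of dose, against 55.6%, 56.8%, 55.6% and 56.5% of all genes. The medians over the 45 genes were 0.12, 0.12, 0.13 and 0.12, beside 0.02 over all genes at each of these doses and 0.04, 0.05, 0.05 and 0.05 over the brighter genes, of which 66.2%, 69.4%, 69.0% and 68.6% were above 0. Unadjusted p-values under 0.05 with a higher level numbered 13, 11, 18 and 15 of 45, against 6.34%, 6.07%, 6.29% and 7.48% of all genes, and with a lower level 0 at each dose, against 3.11%, 3.15%, 2.89% and 3.24%. Among the 7109 brighter genes they numbered 667, 647, 660 and 815 with a higher level and 78, 96, 79 and 126 with a lower one. Groups lay wholly above the controls in 5, 7, 7 and 8 genes, against 1.89%, 2.7%, 2.54% and 3.55% of all genes. All 5 dose groups are compared with the same 5 control arrays, so these counts are not independent of each other.

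The same was seen array by array. For each array the median log2 deviation of the 40 genes from their control means was taken. Liver controls lay between -0.08 (replicate 1) and 0.03, and all 20 dosed livers lay higher, between 0.05 and 0.24. The group means were 0.12 ± 0.03, 0.12 ± 0.02, 0.13 ± 0.08, 0.13 ± 0.05 and 0.17 ± 0.07 from the lowest to the highest dose (SD, n = 4 each). The groups overlap each other widely, and replicates 3 and 4 at 1000 mg/kg and replicate 4 at 100 mg/kg are the highest arrays, at 0.24, 0.21 and 0.24. The median of the brighter genes lay on the same side by less: 14 of 20 dosed livers exceeded every control, at 0.01 to 0.10 against -0.04 to 0.03. With each array centred on its median, 15 of the 20 stayed above every control. The part of this general shift in the result was not tested.

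**Figure D3:**
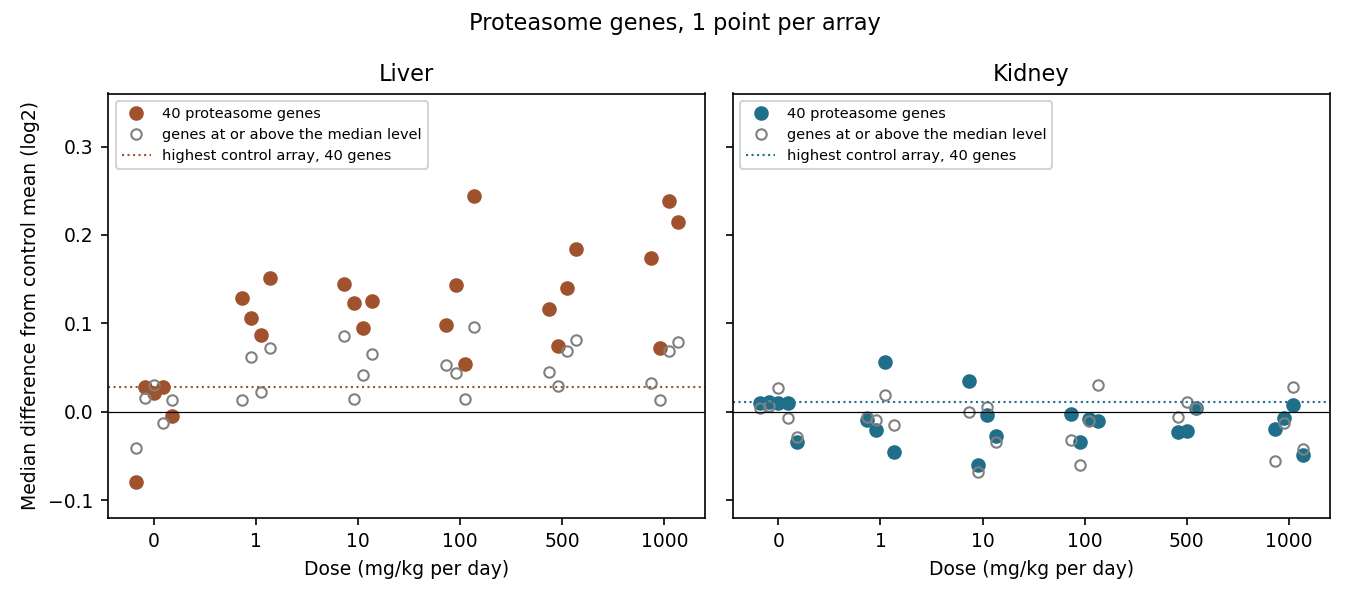
Median log2 deviation from the control mean over the 40 proteasome genes apart from the immunoproteasome subunits and the 2 non-subunits (vertical axis), for each array by dose in mg/kg per day, in liver and kidney. All 20 dosed livers lie above the 5 liver controls, and 2 of 19 dosed kidneys lie above the 5 kidney controls.

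A linear trend with dose rank was called for the same genes, Psmc3 and Psmd8, with slopes of 0.05 log2 units per dose step for each (SE 0.0105 and 0.0124, limma adjusted p = 0.0214 and 0.0454). Of all genes 0.521% had a called positive trend and 0.141% a called negative one. The controls hold the lowest rank in this fit, so a step from controls to any dose also gives a slope. The medians over the 45 genes were 0.12, 0.12, 0.13, 0.12 and 0.17 at 1, 10, 100, 500 and 1000 mg/kg. A trend over the dosed arrays alone is not given here. Psmd4 had a slope of 0.05 and just missed (limma adjusted p = 0.0503). An unadjusted p under 0.05 was reached by 22 of the 45 with a positive slope, against 7.69% of all genes, and by 0 with a negative one, against 4.04%. With quantile normalization or with arrays centred on their median the Psmd8 trend was not called (limma adjusted p = 0.0604 and 0.0652) and the Psmc3 trend was (0.0285 and 0.0417). The count of 2 became 0 without control 1 or 3 or without replicate 3 or 4 at 1000 mg/kg, 4 without replicate 2 at 1000 mg/kg, and 1 without control 2, 4 or 5 or any 1 of 8 other dosed arrays. Those were replicates 2 and 3 of the 1 mg/kg group, 2 and 4 of the 10 mg/kg group, 4 of the 100 mg/kg group, 3 and 4 of the 500 mg/kg group and 1 of the 1000 mg/kg group.

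None of the 3 immunoproteasome subunits was called in liver. Psmb8 (beta5i) read 8.58, 8.41, 9.39, 8.63 and 9.09 in liver controls and 8.66, 8.91, 8.76 and 8.37 at 1000 mg/kg. Psmb9 (beta1i) read 8.38, 8.26, 9.24, 8.42 and 8.68 in controls and 8.42, 8.38, 8.33 and 8.27 at 1000 mg/kg. Control replicate 3 is the highest control in both genes, and the dosed arrays lie within the controls except the lowest Psmb8 array. The differences were -0.15 for Psmb8 and -0.24 for Psmb9, with SE 0.22 and 0.17 (limma adjusted p = 0.844 and 0.611). Without control 3 they shrank to -0.01 and -0.08, and without control 2 they grew to -0.25 and -0.32.

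Psmb10 (beta2i) read 7.57, 7.61, 7.97, 7.81 and 7.62 in liver controls and 8.04, 7.74, 8.27 and 7.76 at 1000 mg/kg, a difference of 0.24 with SE 0.11 (limma adjusted p = 0.350). Its replicates 1 and 3 exceed every control and the other two do not. At 1, 10, 100 and 500 mg/kg its differences were 0.37, 0.13, 0.32 and 0.23, none called. Psmb8 and Psmb9 had their highest mean at 100 mg/kg, 9.17 ± 0.34 and 8.85 ± 0.30 (SD, n = 4 each), also with no call. Psmb8 and Psmb9 are next to Tap1, which lies between them in the MHC region, and Tap1 differed by -0.15 in liver at 1000 mg/kg (limma adjusted p = 0.706).

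The PA28 subunits Psme1 and Psme2 were among the genes with higher levels. Psme1 read 11.17, 11.20, 11.29, 11.29 and 11.28 in controls and 11.45, 11.30, 11.45 and 11.32 at 1000 mg/kg, a difference of 0.14 with SE 0.061 (limma adjusted p = 0.365). The dosed arrays lie above every control, the lowest of them by under 0.01. Psme2 read 9.67, 9.76, 9.90, 9.87 and 9.72 in controls and 9.99, 9.87, 10.05 and 9.88 at 1000 mg/kg, with overlap (difference 0.16, SE 0.066, limma adjusted p = 0.289).

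**Figure D4:**
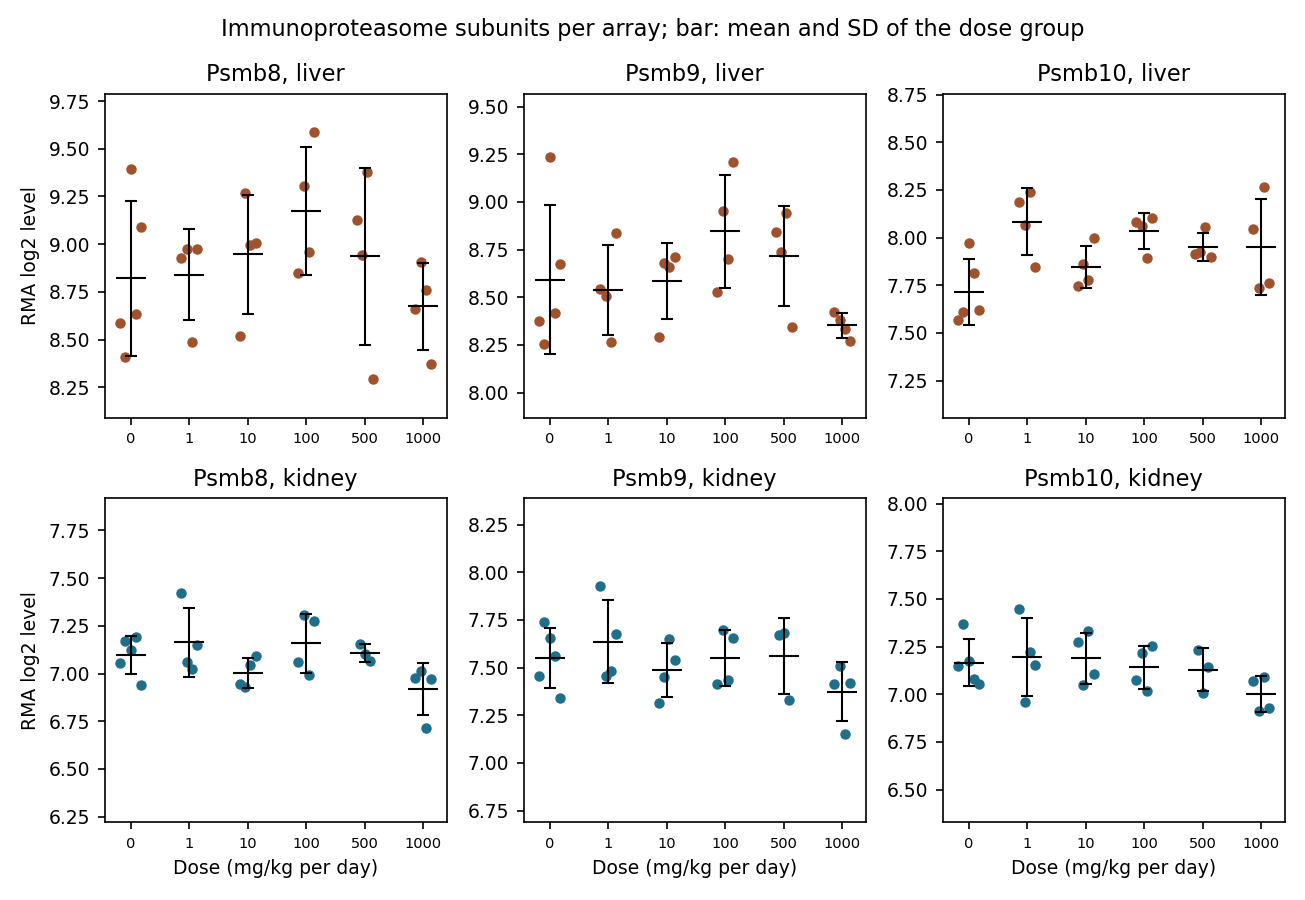
RMA log2 level (vertical axes) of Psmb8, Psmb9 and Psmb10 in each liver array (top) and kidney array (bottom) by dose in mg/kg per day. Points are arrays and bars are the group mean and SD. Psmb8 and Psmb9 in liver controls span 8.41 to 9.39 and 8.26 to 9.24, and control replicate 3 is the highest in both.

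In kidney no proteasome gene was called at any dose. At 1000 mg/kg 0.506% of all genes were called higher and 1.04% lower, and at 1, 10, 100 and 500 mg/kg 0%. The median log2 difference of the 45 genes at 1000 mg/kg was -0.02, equal at this precision to that of all genes, and 16 of 45 were above 0, against 44.5% of all genes. Unadjusted p-values under 0.05 numbered 1 higher (4.76% of all genes) and 1 lower (8.57%). Groups lay wholly above the controls in 0 genes (1.62% of all) and wholly below in 1 (3.09%). Trends with dose rank were called for 0 of 45 genes, against 0.359% of all genes with a positive and 1.03% with a negative trend. In each direction 1 gene had an unadjusted p under 0.05 for the trend, against 4.51% of all genes upward and 7.97% downward.

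At 1, 10, 100 and 500 mg/kg the kidney difference was above 0 in 26, 17, 17 and 19 of the 45 genes, against 47.2%, 42.4%, 42% and 48.3% of all genes. An unadjusted p under 0.05 was reached with a higher level by 0, 0, 1 and 0 of them, against 1.51%, 3.12%, 2.13% and 2.22% of all genes, and with a lower level by 1, 2, 1 and 0, against 1.46%, 4.23%, 4.7% and 2.86%. Groups lay wholly above the controls in 1, 0, 0 and 1 genes (0.436%, 0.675%, 0.457% and 1.75% of all) and wholly below in 0, 2, 1 and 3 (0.626%, 1.67%, 1.51% and 2.55%). At 500 mg/kg, with 3 arrays, the genes below were Psma2, Psmc6 and Psmd14, and Psmd6 was above.

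The lower level at an unadjusted p under 0.05 at 1000 mg/kg was that of Psmd2, which was not called. Its kidney controls read 10.14, 10.20, 10.27, 10.20 and 10.20, and the arrays at 1000 mg/kg 10.06, 10.05, 10.12 and 10.06, all below every control. The difference was -0.13 with SE 0.045 (limma adjusted p = 0.192). At 10 mg/kg Psmd2 was 1 of the 2 genes wholly below the controls, at 10.11, 10.07, 10.11 and 10.07, while those at 100 and 500 mg/kg overlapped them. The other was Psme3ip1 (difference -0.25, limma adjusted p = 0.568), which was not below every control at 1000 mg/kg. Psmd10 (gankyrin), a chaperone of the regulatory particle, had the higher level at an unadjusted p under 0.05, also not called, with controls at 8.31, 8.50, 8.28, 8.42 and 8.47 and 1000 mg/kg arrays at 8.70, 8.51, 8.72 and 8.48 (difference 0.21, SE 0.071, limma adjusted p = 0.175). Its replicates 2 and 4 lie close to the highest control, replicate 4 below it. Psmc2 averaged 10.95 ± 0.03 (SD, n = 4) at 1000 mg/kg and 11.04 ± 0.05 (SD, n = 5) in controls, and Psmc3ip 7.04 ± 0.12 and 6.91 ± 0.11, with overlap in both.

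Psmc3 and Psmd8, called in liver, had kidney differences of 0.02 (95% interval -0.09 to 0.13) and 0.04 (-0.07 to 0.15). Psmb8, Psmb9 and Psmb10 differed in kidney by -0.18, -0.18 and -0.16 (limma adjusted p = 0.377, 0.529 and 0.458). Replicate 3 was the lowest of the 1000 mg/kg kidneys for Psmb8 and Psmb9, at 6.71 and 7.15. The control means were 8.82, 8.59 and 7.72 in liver and 7.10, 7.55 and 7.17 in kidney for these 3 genes. The sources used here do not give whether the arrays of both organs were normalized together, so these levels are not compared. In 7 kidney arrays adipocyte markers exceeded their control mean by over 0.5 log2 units. Control 4 was among them and no 1000 mg/kg array was, so the comparison at 1000 mg/kg lost only control 4 from its groups. Without those arrays the count of called genes at 1000 mg/kg was again 0 and the median -0.02.

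The change at 1000 mg/kg differed between the organs for 1 of the 45 genes, Psmd2, by 0.32 log2 units (liver minus kidney, SE 0.063, limma adjusted p = 0.00784). In all genes 0.436% were called with the liver change above the kidney change and 0.19% with it below. Psmd2 was 0.19 higher in liver and 0.13 lower in kidney on the log2 scale, and neither of these changes passed on its own. With arrays centred on their median no gene of the 45 passed. Of the brighter genes, which hold 44 of the 45, 65.3% had a change above 0 in liver and 41.9% in kidney at this dose. The liver change exceeded the kidney change in 41 of 45 genes, against 8252 of all 14217 genes. The median of the difference was 0.17 over the 45 and 0.04 over all genes. An unadjusted p under 0.05 in this direction was reached by 23 of 45, against 8.22% of all genes. Psmc3 (0.27), Psmc2 (0.27), Psma6 (0.26) and Psmd8 (0.28) followed Psmd2 by p and did not pass (limma adjusted p 0.0933 to 0.139).

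**Figure D5:**
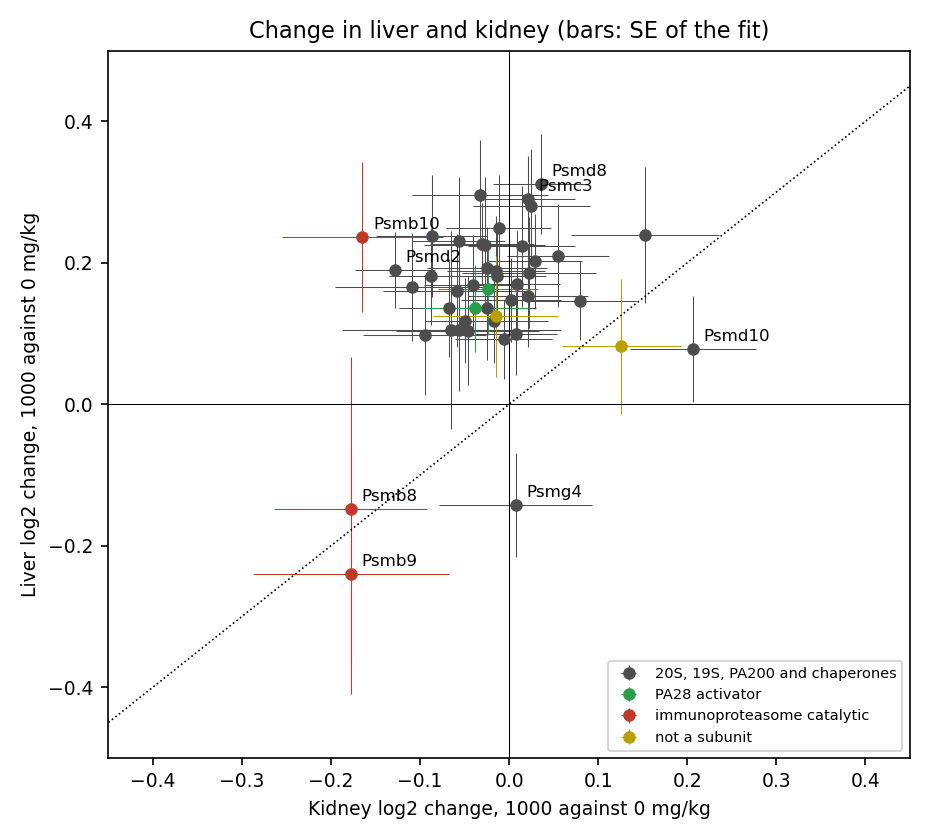
Log2 change at 1000 mg/kg against 0 mg/kg in liver (vertical axis) against that in kidney (horizontal axis) for the 45 genes, coloured by role. Bars are the SE of the fit and the dotted line marks equal changes. 41 of 45 genes lie above the line, against 8252 of all 14217 genes, and Psmb8, Psmb9 and Psmg4 have liver values below 0.

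Genes that work with the proteasome gave the following counts. Of 11 measured assembly and associated factors 0 were called in liver at 1000 mg/kg, and the median difference was 0.12. Of these, 5 had an unadjusted p under 0.05 with a higher level, against 7.88% of all genes. The 4 with the smallest p were Ecpas, a proteasome adaptor (0.25, limma adjusted p = 0.0781), the deubiquitinase Uchl5 (0.22), its receptor Adrm1 (0.17) and the inhibitor Psmf1 (0.14). Pomp, the maturation factor of the core particle, differed by 0.08. The ubiquitin and shuttle factors had 0 of 13 called and a median of 0.07. With a higher level, 3 had an unadjusted p under 0.05, beside the same 7.88% of all genes. The smallest p was that of the shuttle factor Ubqln2 (0.23, limma adjusted p = 0.147). Nsfl1c (0.17), Nploc4 (0.18) and Ubqln4 (0.12) came next. In kidney both lists had 0 called, with medians of -0.03 and 0.01.

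Known regulators of proteasome genes had 0 of 16 called in liver and a median of 0.02. Nfe2l1, which encodes NRF1, differed by 0.24 (limma adjusted p = 0.139), and Nfe2l2, which encodes NRF2, by -0.17 (limma adjusted p = 0.743). Keap1, the adaptor that marks NRF2 for degradation, differed by 0.17, Tbp by 0.24 and Irf8 by -0.29, none called. In kidney 0 of 16 were called and the median was -0.04.

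Of 17 measured redox defence targets of NRF2, 6 rose and 1 fell in liver at 1000 mg/kg, where 0.739% of all genes were called higher and 0.309% lower, and their median log2 difference was 0.38. Nqo1, a quinone reductase, rose by 1.33 (SE 0.13, limma adjusted p = 3.2e-06) and the efflux pump Abcc3 by 1.77 (SE 0.19, limma adjusted p = 9.0e-06). Akr7a3, an aldehyde reductase, and glutathione reductase Gsr rose by 1.26 and 0.72. Hmox1, heme oxygenase, fell by 0.45 (limma adjusted p = 0.0375). The mean over the list lay above every control in 19 of 20 dosed livers. That of the ubiquitin and shuttle factors did so in 18, with 1 below every control, and that of the assembly and associated factors in 14. Beside these, the median over all genes lay above every control in 12 of the 20 dosed livers, and that over the brighter genes in 14. In kidney 0 of 17 were called.

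Interferon and MHC class I genes had 0 of 19 called in liver at 1000 mg/kg and a median of 0.04. With a higher level, 2 had an unadjusted p under 0.05 (Ifit2, 0.35, and Tapbp, 0.14), where 7.88% of all genes did. Their array means spanned -0.20 to 0.34 in liver controls and -0.15 to 0.34 in dosed livers. Markers of leukocytes, cells that make the immunoproteasome without interferon, had 0 of 21 called in liver and 3 above 0, where 54.3% of all genes were. Their median was -0.14. With a lower level 4 had an unadjusted p under 0.05 and with a higher level 1, against 4.54% and 7.88% of all genes. The array means of the leukocyte markers spanned -0.07 to 0.11 in controls and -0.22 to 0.16 in dosed livers. Of the 20 dosed livers 8 lay below every control and 1 above. Ptprc, carried by all leukocytes, differed by -0.03. In kidney at 1000 mg/kg 2 of the 21 leukocyte markers fell, where 1.04% of all genes were called lower. They were Cybb, by 0.42, and Adgre1, by 0.80 (limma adjusted p = 0.0174 and 0.0218). The median was -0.11. At an unadjusted p under 0.05, 5 were lower and 0 higher, against 8.57% and 4.76% of all genes. Hepatocyte markers had 0 of 8 called in liver, and their median was -0.08. The part of cell composition in the proteasome values was not tested.

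For the 9 genes with several probe sets, the other probe sets gave these liver values at 1000 mg/kg. The further probe sets of Psmd11, Psmd14, Psmd7 and Psme4 with mean liver levels above 8 differed by 0.16 to 0.22. Psmc6 gave 0.10 for the probe set used, and 0.10 and -0.01 for its others. Those of Psmb5, Psmc4, Psmd9 and Psme1 read levels under 6, and differed by -0.08 to 0.14. The dimmest probe sets of Psmd11 and Psmd14, also under 6, gave -0.16 and 0.11.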

How the data were processed

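Liver and kidney RNA was measured on Affymetrix rat arrays. The authors deposited log2 values from RMA, per the submitters' processing notes. RMA gives all arrays about the same distribution, so a shift common to most genes can be lost. Detection calls were not used. Of 31099 probe sets, 57 were controls and 20826 carried 1 symbol, which gave 14217 genes. The arrays of each organ were fitted with limma 3.58.1 (R 4.3.3), with 1 mean for each dose. Contrasts against 0 mg/kg, a trend with dose rank and, over all 49 arrays, the difference between organs at 1000 mg/kg were tested, and a gene was called where its p, adjusted by Benjamini-Hochberg over all genes, was under 0.05. The models were tested on simulated data. Symbols were updated through Entrez identifiers where possible.

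All 45 genes are named. Values per array or group are given for genes called at 1000 mg/kg, in an organ with fewer than 5 calls also the 5 with the smallest p, the catalytic, immunoproteasome and PA28 subunits, and for other lists the differences of up to 4 genes with the smallest p. Psmd4, Psmd14, Psmc5, Psmg4, Psme3ip1, Pomp, Tap1, Ptprc, Nfe2l2 and other genes outside this rule were singled out after their values were seen. The genes and lists were chosen with earlier results of these data known. Promoters are RefSeq sequences of build GRCr8.

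Alternatives were averaging all probe sets, quantile normalization, testing brighter genes only, a variance trend with robust moderation, centred arrays, a replicate block, fitting only the 2 groups compared, a random block for the organs and leaving out each array. Single genes were recomputed for 15 members, those of the rule above. Leaving out kidney arrays high in adipocyte markers, and the count of dosed arrays above every control, were added after the data were seen.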

Additional observations from a re-analysis of the deposited data

Results flagged for a closer look

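Arrays far from the others of their group were looked for over the 45 genes and the median of the 40 genes, in 506 groups of 4 or 5 arrays. There were 34, where chance gives about 1 in 20 groups.

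In the liver controls, replicate 1 was low for Psma2 (9.97, the others 10.10 to 10.15), Psma3 (7.79, the others 7.98 to 8.03) and Psma7 (10.38, the others 10.52 to 10.55). Control 2 was high for Psmc4 (10.03, the others 9.85 to 9.89), and control 4 for Psmd9 (8.34, the others 8.15 to 8.20). At 1 mg/kg replicate 3 was low for Psma5 (10.12, the others 10.47 to 10.52), Psmb8 (8.49, the others 8.93 to 8.97) and Psmd7 (9.19, the others 9.38 to 9.42).

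At 10 mg/kg in liver, replicate 3 was low for Psma5 (10.33, the others 10.45 to 10.47) and Psmd2 (9.92, the others all 10.03), replicate 2 for Psmb7 (8.99, the others 9.11 to 9.13) and Psmg3 (7.34, the others 7.51 to 7.54), and replicate 1 for Psmb9 (8.29, the others 8.66 to 8.71). Replicate 4 of that dose was low for Psmd11 (10.16, the others 10.24 to 10.25) and high for Psmg1 (9.87, the others 9.81 to 9.82). At 100 mg/kg replicate 4 was high for Psmd8 (9.82, the others 9.57 to 9.59) and replicate 3 low for Psmb7 (8.85, the others 9.11 to 9.17).

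At 500 mg/kg in liver, replicate 2 was low for Psmd9 (7.41, the others 8.40 to 8.43) and Psmd10 (8.00, the others 8.23 to 8.27). Replicate 4 was high for Psma5 (10.56, the others 10.42 to 10.43) and replicate 3 for Psmb10 (8.06, the others 7.90 to 7.92). At 1000 mg/kg replicate 4 was high for Psmd12 (8.90, the others 8.62 to 8.66) and low for Psmg1 (9.73, the others 9.80 to 9.81).

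In kidney, control 2 was low for Psmd1 (8.04, the others 8.25 to 8.29), and control 5 for the median deviation of the 40 genes (-0.0340, the others 0.0101 to 0.0108). At 10 mg/kg replicate 2 was low for Psma4 (9.84, the others all 10.03) and replicate 4 high for Psmc5 (9.70, the others 9.47 to 9.51). At 100 mg/kg replicate 3 was high for Psma3 (8.11, the others 7.88 to 7.91). Replicate 2 of that dose was high for Psmb5 (11.41, the others all 11.35) and low for Psmb2 (10.24, the others 10.28 to 10.29) and Psmd14 (9.28, the others 9.42 to 9.45). At 1000 mg/kg replicate 3 was high for Psmd2 (10.12, the others 10.05 to 10.06) and low for Psmb8 (6.71, the others 6.97 to 7.01), and replicate 2 was high for Psmg3 (7.69, the others 7.48 to 7.49). The Psmd2 change at 1000 mg/kg differed between the organs, by 0.32 log2 units (limma adjusted p = 0.00784).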

How the results depend on the processing

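The 2 calls in liver at 1000 mg/kg (Psmc3 and Psmd8) became 8 among brighter genes only, 6 with a variance trend, 1 with centred arrays, and 0 with the replicate number as a replicate block or when only the 2 groups were fitted. Leaving out single arrays gave 0 to 4. The count at 500 mg/kg was 1 instead of 0 among brighter genes or with a variance trend. The 2 called trends in liver became 7 among brighter genes, 5 with a variance trend, 1 with quantile normalization, 1 with centred arrays, and 0 to 4 without single arrays. The organ difference (1 gene) became 3 among brighter genes, 0 with centred arrays and 1 to 2 without single arrays. Fewer genes tested, or fewer arrays, is part of some of these settings. For the others the cause was not tested. The median liver difference at 1000 mg/kg lay between 0.12 and 0.19 in all settings.

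The median kidney difference at 1000 mg/kg (-0.0239) was 0.0222 with centred arrays and -0.0301 to -0.00398 without single arrays. Kidney differences near 0 changed sign: with centred arrays Psma6 was 0.0156, Psmd3 0.0130, Psmb5 0.0213, Psme1 0.00825 and Psme2 0.0222, and with the mean of all probe sets Psme1 was 0.0306. Without single kidney arrays Psmc3 ranged from -0.00593 to 0.0474, Psma6 from -0.0553 to 0.00424, Psmd3 from -0.0551 to 0.0166 and Psmb5 from -0.0582 to 0.000255. The counts of called genes in kidney were 0 in every setting. Single-gene differences were recomputed at 1000 mg/kg for 15 of the 45 genes, and in liver none of those 15 changed sign.

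Samples with the same number at 0 and 1000 mg/kg did not consistently deviate together: the correlations of their deviations were 0.118, 0.0251, 0.0596 and -0.154 in liver and 0.0262, -0.118, -0.0771 and 0.109 in kidney, so the number was not treated as a pairing. In liver, replicates 1 and 3 at 1000 mg/kg correlated most with the control of their own number. Replicates 2 and 4 did not, and in kidney no replicate did. With the replicate block the limma adjusted p was 0.0515 for Psmc3 and 0.0622 for Psmd8 in liver.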
